A study of Mus musculus with 18 samples.

Results

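The genes described here are 9 of the 55335 gene identifiers counted in the study. They encode secreted growth factors of blood vessel biology and 1 of their receptors: hepatocyte growth factor (Hgf) and its receptor Met, the angiopoietins Angpt1 and Angpt2, the angiopoietin-like protein Angptl4, and the vascular endothelial growth factors Vegfa, Vegfb, Vegfc and Vegfd. The set was put together because Hgf and Angpt2 changed strongly at d5, so its members were selected on counts of these libraries. Their d5 values are therefore given as a description with no test, and tests at d5 cover the other 7 genes. At d2.5 every gene that passed the low-count filter was tested.

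Bulk RNA-seq had been run on O9-1 cells, a line of mouse neural crest (NC) cells of wildtype genotype, in osteoblast differentiation medium. Each of 3 groups was collected at d2.5 and at d5, with 3 libraries per group and day. Ctrl+vehicle cells received control siRNA (siCtrl) and no FGF2, Ctrl+FGF2 cells received control siRNA and FGF2, and Y/T dKD+FGF2 cells received a siRNA pool against Yap and Taz (siY/T) and FGF2. FGF2 is a growth factor that signals through FGF receptors and ERK1/2, and Yap and Taz are transcriptional co-activators of the Hippo pathway, encoded by Yap1 and Wwtr1. The comparisons ask how FGF2 alters these genes in differentiating cells and which part of that moves when Yap and Taz are lowered. All cells came from 1 line, the knockdown was partial, and there was no group with siY/T and vehicle, so an effect of the siRNA cannot be told apart from its interaction with FGF2. The batch label of the libraries equals the day, so day and batch cannot be told apart. Groups were therefore compared within a day, and wherever levels of the 2 days are set side by side the difference includes any batch difference. Nothing in the labels says that replicates came from separate cultures, and p-values then measure only the spread between these libraries.

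HGF is made mainly by mesenchymal cells and binds Met, a receptor tyrosine kinase, on neighbouring or the same cells to drive growth, survival and motility. VEGF-A is the main signal for blood vessel growth and acts on the receptors encoded by Flt1 and Kdr, and VEGF-B binds Flt1. VEGF-C and VEGF-D act on Flt4, and VEGF-C also on Kdr, in lymphatic and blood endothelium. The neuropilins Nrp1 and Nrp2 serve as co-receptors of the family. Angiopoietin 1, typically from perivascular and mesenchymal cells, activates the receptor Tie2 (encoded by Tek) on endothelium and steadies vessels, whereas angiopoietin 2 is a context-dependent antagonist of it. ANGPTL4 inhibits lipoprotein lipase and is known to be induced by hypoxia and by PPAR receptors, and Vegfa is likewise a classical gene of the hypoxia response.

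Gene counts per library lay between 10377151 and 14698525 (median 12330911), and 1 count equalled between 0.0645 and 0.102 CPM (counts divided by library size, with TMM factors over all 18 libraries). The siRNA targets were lower in the knockdown than in Ctrl+FGF2: Yap1 was at 51.9% of its Ctrl+FGF2 mean at d2.5 and 46.2% at d5, and Wwtr1 at 61.2% and 57.7%. Against Ctrl+vehicle, Yap1 in the knockdown was at 44.6% at d2.5 and 48.2% at d5. Wwtr1 was at 97.0% of Ctrl+vehicle at d2.5, with overlapping libraries, and at 53.7% at d5. With FGF2 alone, Wwtr1 was at 158% of Ctrl+vehicle at d2.5. Of 12 NC and mesenchyme markers, Sox10 and Foxd3, which define early NC cells, were at 0 counts in all 18 libraries, and 9 or 10 of the markers had a mean of at least 1 CPM in each group. Of 12 endothelial markers, Cdh5, Cldn5, Sox17 and Robo4 were at 0 counts in all 18 libraries, and the summed level of the list lay between 3.50 and 10.5 CPM. Between 1 (Ctrl+vehicle at d5) and 5 (Ctrl+FGF2 at d5) of these 12 had a mean of at least 1 CPM, with Egfl7 the highest. In bulk RNA, fewer cells that express a gene and less of its RNA per cell cannot be told apart.

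FGF2 shifted most of these genes already at d2.5. Met, Angpt2, Angptl4, Vegfa and Vegfb rose and Angpt1 and Vegfd fell, which made 7 of the 8 genes tested (edgeR's quasi-likelihood test, Benjamini-Hochberg adjusted p under 0.05), where 67.6% of all 13677 genes tested were called. Hgf was too low for the test on that day. Knockdown of Yap and Taz in the presence of FGF2 altered 3 of the 8 at d2.5, Met upwards and Vegfa and Vegfb downwards, where 24.5% of all genes were called. With FGF2 and knockdown together against vehicle, 7 of the 8 were called at d2.5, against 69.8% of all genes.

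At d5 the picture differed by gene. Of the 7 genes tested, FGF2 raised Met and Angptl4 and lowered Angpt1, Vegfa and Vegfc, which made 5 called where 47.2% of all 13304 genes tested were. The knockdown raised Angptl4 and lowered Angpt1 and Vegfd, which made 3 of 7 where 31.7% of all genes were called. Y/T dKD+FGF2 against Ctrl+vehicle called 6 of 7, against 41.8% of all genes. These shares are those of a broad response of the transcriptome, and the genes were chosen with such changes known, so no enrichment is read from them. Where libraries are said not to overlap between groups, that held at d2.5 for 70.5% of all genes with FGF2, 39.4% with the knockdown and 71.1% for both against vehicle, and at d5 for 54.5%, 45.0% and 51.9%.

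**Figure D1:**
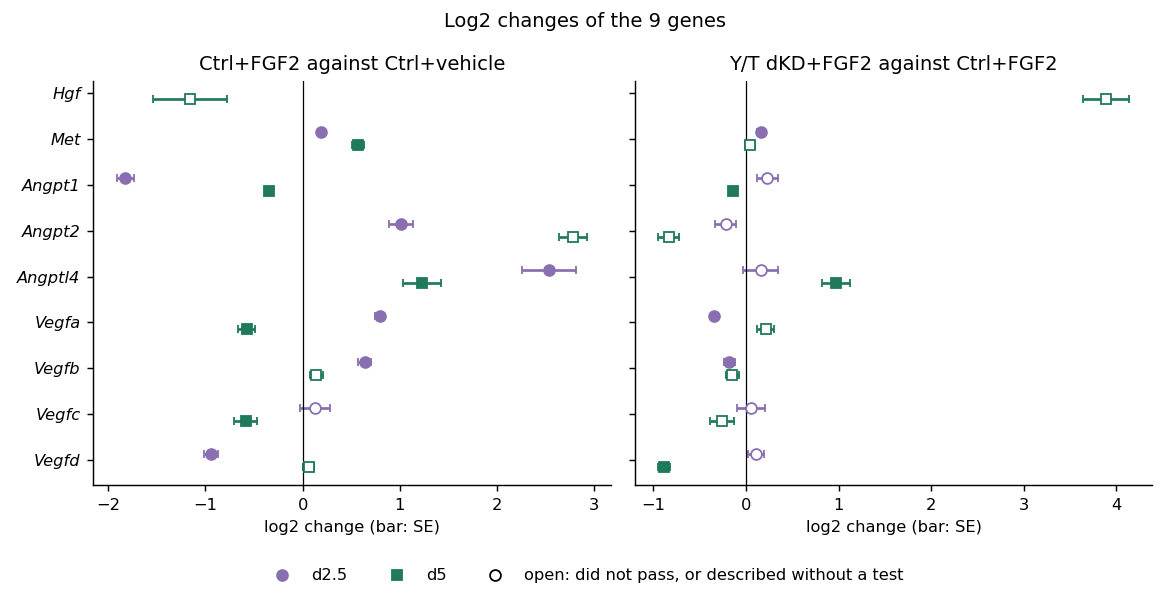
Log2 change (x axis, with standard error) of each of the 9 genes for Ctrl+FGF2 against Ctrl+vehicle (left) and Y/T dKD+FGF2 against Ctrl+FGF2 (right), at d2.5 (circles) and d5 (squares). Filled symbols passed an adjusted p of 0.05 and open ones did not or, for Hgf and Angpt2 at d5, had no test; the widest shift is that of Hgf in the knockdown at d5, at 3.89, and Hgf has no value at d2.5.

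Hgf, the ligand of Met, lies on the plus strand of chromosome 5, bases 16553495 to 16620152 (GENCODE M21, GRCm38, used for all positions here). It was the gene of the set with the lowest level per kb of exon in each of the 6 groups. At d2.5 its counts were 8, 2 and 5 in Ctrl+vehicle, 9, 10 and 6 in Ctrl+FGF2 libraries and 6, 5 and 8 in Y/T dKD+FGF2 libraries. The 3 groups overlapped, and all 9 libraries were at or below 0.728 CPM. At d5 the counts were 7, 13 and 13 in Ctrl+vehicle, 6, 4 and 5 in Ctrl+FGF2 libraries, and 72, 78 and 73 in Y/T dKD+FGF2 libraries. The knockdown libraries stood apart from all 15 others, and no other group held more than 13 counts in a library.

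On the CPM scale the d5 means of Hgf were 0.985 ± 0.247 (SD, n = 3) in the Ctrl+vehicle libraries, 0.442 ± 0.113 in Ctrl+FGF2 libraries and 6.68 ± 0.678 in Y/T dKD+FGF2 libraries. The Y/T dKD+FGF2 mean was 15.1 times the Ctrl+FGF2 mean (log2 difference 3.89 ± 0.25, SE) and 6.78 times the Ctrl+vehicle mean (2.73 ± 0.21). Ctrl+FGF2 was at 44.9% of Ctrl+vehicle (log2 difference -1.15 ± 0.38), with no overlap of the libraries. These d5 differences chose the gene and carry no test, and Hgf passed the low-count filter at d5 through the knockdown group in which it was high. The d5 mean was 13.2 times that at d2.5 in the knockdown and 2.77 times in Ctrl+vehicle, while the Ctrl+FGF2 groups of both days overlapped. In Ctrl+vehicle this ratio rests on 2 to 8 counts per library at d2.5 and 7 to 13 at d5, and both ratios include any batch difference. Gm43489 and Gm42975 overlap Hgf on the same strand and held at most 1 count in any group, and reads shared with them would not have been counted. Blood cell markers, another possible source of a low transcript, summed to between 4.40 and 5.50 CPM in the knockdown at d5, between 2.76 and 3.91 in Ctrl+FGF2 and between 2.51 and 3.86 in Ctrl+vehicle. Their highest gene was Cd68, and 2 of the 6 (Itgam and Cd3e) were at 0 counts in all 18 libraries. Of the 2 tested, 1 was higher in the knockdown than in Ctrl+FGF2, where 31.7% of all genes were called. The part of blood cell markers in the Hgf level was not tested.

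**Figure D2:**
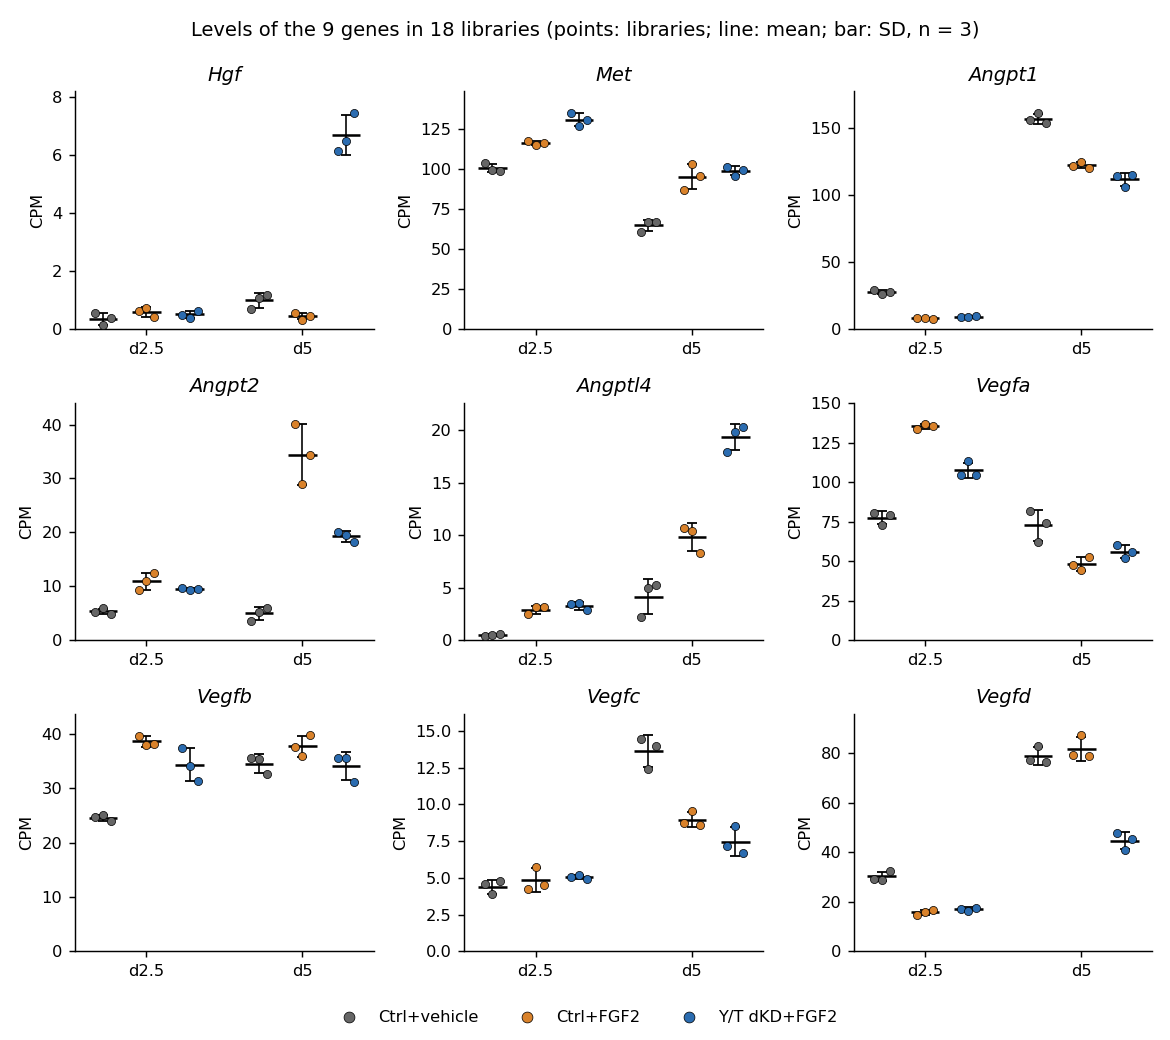
Level in CPM (y axis, each panel on its own scale from 0) of the 9 genes in the 18 libraries, by day and group, with the mean and SD of 3 libraries. Hgf stands out in the d5 knockdown libraries (6.12 to 7.44 CPM, against at most 1.17 elsewhere), and Angpt2 is highest in Ctrl+FGF2 at d5 (28.9 to 40.1 CPM).

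Met, the receptor of HGF, lies on the plus strand of chromosome 6, bases 17463800 to 17573980, and was expressed throughout. At d2.5 its level was 104, 99.5 and 98.8 CPM in Ctrl+vehicle, 117, 115 and 116 in Ctrl+FGF2 libraries and 135, 127 and 130.3 in Y/T dKD+FGF2 libraries. The groups formed 3 separate steps. FGF2 raised Met by 0.19 ± 0.04 (log2, SE; adjusted p = 4.79e-05), and the knockdown raised it by a further 0.16 ± 0.04 (adjusted p = 0.00196). At d5 the level was 60.8, 66.7 and 66.7 CPM in Ctrl+vehicle, 87.1, 103 and 95.6 in Ctrl+FGF2 libraries and 101, 95.8 and 99.6 in Y/T dKD+FGF2 libraries. The vehicle libraries lay below all others, and the FGF2 groups with and without knockdown overlapped. Met rose by 0.57 ± 0.06 with FGF2 (adjusted p = 4.26e-07), a change 0.35 ± 0.07 above that at d2.5 (adjusted p = 8.07e-05), and the knockdown difference at d5 was 0.05 ± 0.06 (adjusted p = 0.592).

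Promoter windows from RefSeq (GRCm38.p6, 250 bases before to 50 after a start) covered 6 of the 9 genes in 8 windows; none was listed for Angpt1, Angpt2 and Angptl4. They were searched on both strands for GGAATG (TEAD, the DNA-binding partners of Yap and Taz), TGANTCA (AP-1, a factor downstream of ERK), ACGTG (the core of the hypoxia response element) and a direct repeat of AGGTCA with 1 base between its copies (the PPAR element). GGAATG was found in none of the 8 and in 14.7% of all 32851 windows, and the PPAR repeat in none of the 8 and in 0.0396% of all. TGANTCA was found in the Met window (7.81% of all windows), and ACGTG in the Met window and in 1 of the 2 Vegfa windows (19.6% of all). The stretches below are shown because they hold all 3 matches among these genes, with the match in capitals and 9 bases on either side, read 5′ to 3′ on the gene's strand.
Met, AP-1 match 54 bases before the start, chr6:17463894-17463918, plus strand: ttgcccggcTGAGTCAcgggccggg
Met, ACGTG match on both strands, 126 bases before the start, chr6:17463822-17463845, plus strand: acgaacagaCACGTGctggggcgg
Vegfa, ACGTG match on the other strand, 211 bases before an internal start, chr17:46025361-46025383, minus strand: gtgcgtgccCACGTcagagagca
GENCODE places both Met stretches inside an untranslated first exon of Met, upstream of the RefSeq start, and the Vegfa stretch inside a coding exon of longer transcripts. A match of letters is a description of the sequence and says nothing of binding in these cells.

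Of 11 further genes of the HGF axis, 4 were tested at d2.5 and 5 at d5. With FGF2, 1 of the 4 fell at d2.5 (67.6% of all genes called), and 2 of the 5 rose and 1 fell at d5 (47.2%). With the knockdown, 1 of the 4 rose at d2.5 (24.5%), and 1 of the 5 rose and 2 fell at d5 (31.7%). The proteases that activate HGF (Hgfac, Hpn and St14) stayed at or below a mean of 0.558 CPM in every group, and the related receptor Mst1r summed to between 0 and 8 counts per group. Gab1, the docking adaptor of Met, fell with FGF2 at d2.5 from 31.4 ± 3.89 to 16.5 ± 0.929 CPM (log2 -0.94 ± 0.08, adjusted p = 1.11e-11). At d5 it rose with FGF2 from 47.8 ± 2.08 to 65.8 ± 2.10 CPM (0.47 ± 0.06, adjusted p = 2.05e-06) and fell with the knockdown to 50.9 ± 2.72 (-0.37 ± 0.05, adjusted p = 4.39e-05). Cbl, a ubiquitin ligase that marks Met for degradation, rose with the knockdown at d2.5 from 55.8 ± 1.19 to 64.2 ± 0.595 CPM (0.19 ± 0.05, adjusted p = 0.00367) and at d5 from 39.5 ± 1.52 to 58.1 ± 0.949 CPM (0.55 ± 0.06, adjusted p = 1.02e-06), and fell with FGF2 at d5 (-0.17 ± 0.06, adjusted p = 0.0297). The Cbl call with FGF2 at d5 was lost with DESeq2 (adjusted p = 0.0826) and with upper-quartile factors (0.0685). It was also lost without Ctrl+vehicle replicate 2 (0.172) or Ctrl+FGF2 replicate 1 (0.105) or 2 (0.0530). Sema4d was lower in the knockdown than in vehicle at d5 (-1.36 ± 0.46, adjusted p = 0.0249), on 12 and 31 counts summed over the group. That call was lost with DESeq2 (adjusted p = 0.0960). Leaving out Ctrl+vehicle replicate 1 (0.111) or 3 (0.0831), or Y/T dKD+FGF2 replicate 1 (0.0720) or 2 (0.0759), also lost it. Spint2, an inhibitor of HGF-activating proteases, rose with FGF2 at d5 (2.11 ± 0.47, adjusted p = 0.00129) and fell with the knockdown (-1.84 ± 0.45, adjusted p = 0.00426), at low levels with 9, 41 and 11 counts in the vehicle, FGF2 and knockdown groups.

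The angiopoietins moved in opposite directions with FGF2. Angpt1, the Tie2 agonist, lies on the minus strand of chromosome 15, bases 42424723 to 42676977. At d2.5 it was at 29.1, 26.4 and 27.4 CPM in Ctrl+vehicle, 8.03, 8.08 and 7.49 in Ctrl+FGF2 libraries and 9.27, 8.63 and 9.95 in Y/T dKD+FGF2 libraries. Both FGF2 groups lay far below vehicle. Angpt1 fell by 1.82 ± 0.09 on the log2 scale with FGF2 (adjusted p = 5.19e-18), to 28.4% of the vehicle mean, and the knockdown difference of 0.23 ± 0.11 did not pass (adjusted p = 0.125). At d5 its level was 156, 161 and 154 CPM in Ctrl+vehicle, 122, 125 and 120.2 in Ctrl+FGF2 libraries and 114, 106 and 115 in Y/T dKD+FGF2 libraries. The level was thus many times that at d2.5 in every group, and the order of the groups was vehicle, FGF2, knockdown with no overlap. Angpt1 fell with FGF2 at d5 by 0.35 ± 0.04 (adjusted p = 2.51e-06). The FGF2 change was 1.45 ± 0.09 less negative than at d2.5 (adjusted p = 1.14e-14). The knockdown lowered it by 0.14 ± 0.04 at d5 (adjusted p = 0.0199), a call lost with DESeq2 (adjusted p = 0.0648), without Ctrl+FGF2 replicate 2 (0.0653) and without Y/T dKD+FGF2 replicate 2 (0.109).

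Angpt2, on the minus strand of chromosome 8, bases 18690263 to 18741562, rose where Angpt1 fell. At d2.5 its level was 5.18, 5.94 and 4.95 CPM in Ctrl+vehicle, 9.37, 11.0 and 12.4 in Ctrl+FGF2 libraries and 9.61, 9.26 and 9.56 in Y/T dKD+FGF2 libraries. The vehicle libraries lay below all others. FGF2 raised Angpt2 by 1.01 ± 0.12 (log2, adjusted p = 1.45e-08), and the knockdown difference of -0.22 ± 0.11 did not pass (adjusted p = 0.164). At d5 the level was 3.62, 5.25 and 6.01 CPM in Ctrl+vehicle, 40.1, 28.9 and 34.3 in Ctrl+FGF2 libraries and 20.2, 19.4 and 18.2 in Y/T dKD+FGF2 libraries. The 3 groups did not overlap, with the knockdown between vehicle and FGF2. As a description with no test, Ctrl+FGF2 was 6.94 times Ctrl+vehicle (log2 2.79 ± 0.14), and Y/T dKD+FGF2 was at 56.0% of Ctrl+FGF2 (-0.83 ± 0.11) and 3.89 times Ctrl+vehicle (1.95 ± 0.16). The vehicle groups of both days overlapped, whereas Ctrl+FGF2 at d5 was 3.15 times its d2.5 mean. Angpt2 lies inside Mcph1 on the opposite strand, and that gene was at 20.0 ± 1.52, 24.0 ± 1.32 and 22.1 ± 1.66 CPM in the same d5 groups. Counts of 1 strand were used, so the 2 genes were told apart.

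The balance of the angiopoietins followed. Per kb of exon, Angpt1 made up 78.5% of the summed angiopoietin level in Ctrl+vehicle at d2.5, 34.0% in Ctrl+FGF2 libraries and 41.0% with the knockdown. At d5 the shares were 95.7%, 71.6% and 80.4%. Only the FGF2 groups at d2.5 held more Angpt2 than Angpt1. The ratio of Angpt1 to Angpt2 per kb at d5 was 23.5 ± 6.38 (SD, n = 3) in the Ctrl+vehicle libraries, 2.56 ± 0.455 in Ctrl+FGF2 libraries and 4.11 ± 0.317 in Y/T dKD+FGF2 libraries, where the values of Angpt2 that chose the gene enter the ratio.

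**Figure D3:**
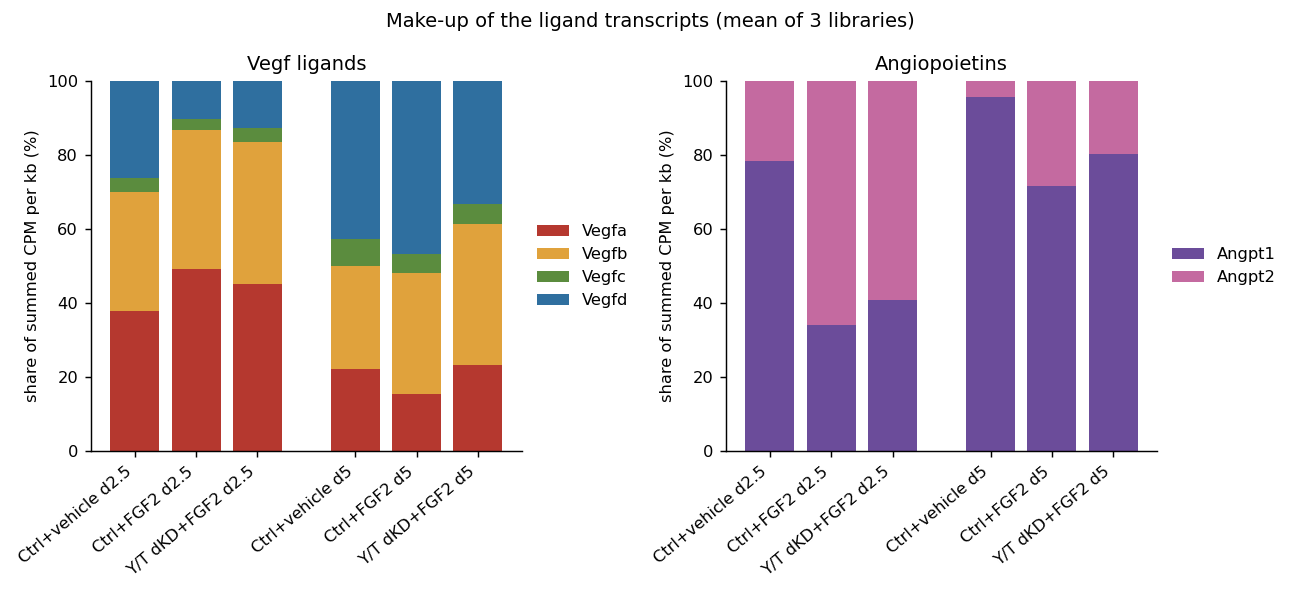
Share (y axis, percent of summed CPM per kb of exon, mean of 3 libraries) of each VEGF gene among the 4 VEGF genes (left) and of each angiopoietin (right) in the 6 groups. Angpt2 exceeds Angpt1 in the FGF2 groups at d2.5 (66.0% and 59.0% of the sum), and Vegfd is the largest VEGF share in Ctrl+vehicle and Ctrl+FGF2 at d5 (42.6% and 46.8%).

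The receptors of the angiopoietins were near absent from these cells. Tek had 7 counts and Tie1 none in all 18 libraries, and 3 counts, the limit that a count of 0 allows, would be 0.0134 CPM over the 18. Ptprb, a receptor phosphatase that restrains Tie2 in endothelium, was expressed and fell with the knockdown at d2.5, from 19.9 ± 1.84 to 12.4 ± 0.305 CPM (log2 -0.69 ± 0.09, adjusted p = 6.97e-07). It fell again at d5, from 30.9 ± 3.31 to 8.50 ± 0.733 CPM (-1.88 ± 0.13, adjusted p = 4.37e-09). The fall was 1.19 ± 0.16 deeper at d5 (adjusted p = 3.19e-06). With FGF2 alone Ptprb differed by 0.07 ± 0.08 at d2.5 and 0.00 ± 0.10 at d5, and neither passed. Pericyte and smooth muscle markers, whose cells are a known source of Angpt1, summed to between 730 and 843 CPM in Ctrl+vehicle, 312 and 328 in Ctrl+FGF2 libraries and 282 and 297 in Y/T dKD+FGF2 libraries at d2.5, with 5 of the 6 tested lower with FGF2. At d5 they summed to between 2642 and 2805, 3298 and 3726, and 2797 and 2935 CPM, with 3 of 7 higher with FGF2, where 67.6% of all genes were called at d2.5 and 47.2% at d5. None of the 10 was at 0 in all libraries, Acta2 was the highest, and their part in the angiopoietin levels was not tested.

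Angptl4, the lipoprotein lipase inhibitor on the minus strand of chromosome 17, bases 33773750 to 33781830, was higher with FGF2 on both days. At d2.5 its level was 0.414, 0.452 and 0.618 CPM in Ctrl+vehicle, 2.47, 3.13 and 3.14 in Ctrl+FGF2 libraries and 3.40, 3.58 and 2.84 in Y/T dKD+FGF2 libraries. The vehicle libraries held 6 to 8 counts each and lay below all others. FGF2 raised Angptl4 by 2.54 ± 0.28 (log2, adjusted p = 1.81e-09), and the knockdown difference of 0.16 ± 0.19 did not pass (adjusted p = 0.588). At d5 the level was 2.21, 5.00 and 5.21 CPM in Ctrl+vehicle, 10.7, 10.4 and 8.26 in Ctrl+FGF2 libraries and 17.9, 19.8 and 20.3 in Y/T dKD+FGF2 libraries. The groups rose in 3 steps with no overlap. FGF2 raised it by 1.23 ± 0.20 (adjusted p = 5.52e-05), and the knockdown raised it by a further 0.97 ± 0.15 (adjusted p = 7.19e-05). Against vehicle the knockdown group was 2.20 ± 0.18 higher (adjusted p = 1.98e-08). The FGF2 change was 1.34 ± 0.40 smaller at d5 than at d2.5 (adjusted p = 0.00501) and the knockdown change 0.81 ± 0.26 larger (adjusted p = 0.0226).

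Lpl, the lipase that ANGPTL4 inhibits, was near 0 at d2.5. It had at most 10 counts in a library at d2.5 and was at 45.7 ± 5.69 CPM in Ctrl+vehicle, 43.7 ± 6.21 in Ctrl+FGF2 libraries and 33.5 ± 3.61 in Y/T dKD+FGF2 libraries at d5. The FGF2 difference at d5 was -0.05 ± 0.10 (adjusted p = 0.696), and the knockdown lowered Lpl by 0.39 ± 0.10 (adjusted p = 0.00789, and 0.0521 without Y/T dKD+FGF2 replicate 3). The RNA levels of Angptl4 and Lpl thus moved apart in the knockdown at d5, and lipase activity was not measured. Gpihbp1, the endothelial anchor of the lipase, was at 0 counts in every group. Of the other angiopoietin-like genes, Angptl2 was the most abundant, at 285 ± 15.4 CPM in Ctrl+vehicle and 375 ± 14.1 in Ctrl+FGF2 at d2.5 (log2 0.39 ± 0.04, adjusted p = 1.15e-10) and between 463 and 477 CPM on average in the groups at d5. Angptl7 rose with FGF2 at d5 from 3.53 ± 0.648 to 7.90 ± 1.51 CPM (1.17 ± 0.18, adjusted p = 2.87e-05) and fell with the knockdown to 2.36 ± 0.171 (-1.76 ± 0.19, adjusted p = 1.37e-06).

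Vegfa, on the minus strand of chromosome 17, bases 46016993 to 46032369, responded to FGF2 in opposite directions on the 2 days. At d2.5 its level was 80.8, 73.3 and 79.0 CPM in Ctrl+vehicle, 134, 137 and 136 in Ctrl+FGF2 libraries and 105, 113 and 105 in Y/T dKD+FGF2 libraries. The groups did not overlap, and the knockdown lay between the others. FGF2 raised Vegfa by 0.79 ± 0.04 (log2, adjusted p = 1.40e-16), and the knockdown lowered it by 0.34 ± 0.04 (adjusted p = 4.75e-07). At d5 the level was 81.9, 62.4 and 74.2 CPM in Ctrl+vehicle, 47.7, 44.4 and 53.0 in Ctrl+FGF2 libraries and 60.3, 52.1 and 55.9 in Y/T dKD+FGF2 libraries. Vehicle was now the highest group. FGF2 lowered Vegfa by 0.58 ± 0.09 (adjusted p = 3.49e-05), a change 1.39 ± 0.10 below that at d2.5 (adjusted p = 3.36e-13). The knockdown difference at d5 was 0.21 ± 0.09 (adjusted p = 0.0888), past the threshold without a low-count filter, with the replicate block, with only these groups or all 18 libraries in the fit, and without Ctrl+vehicle replicate 1 or 2 or Ctrl+FGF2 replicate 3 (0.00514 to 0.0498), and it lay 0.55 ± 0.10 above that at d2.5 (adjusted p = 0.000147). The vehicle groups of the 2 days overlapped, and the Ctrl+FGF2 mean was 135 CPM at d2.5 and 48.4 CPM at d5.

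Vegfb, the Flt1 ligand on the minus strand of chromosome 19, bases 6982473 to 6987651, was the steadiest of the 4. Its level at d2.5 was 24.7, 25.0 and 24.0 CPM in Ctrl+vehicle, 39.7, 38.1 and 38.2 in Ctrl+FGF2 libraries and 37.5, 34.1 and 31.4 in Y/T dKD+FGF2 libraries. FGF2 raised it by 0.64 ± 0.06 (adjusted p = 2.92e-10). The knockdown lowered it by 0.18 ± 0.06 (adjusted p = 0.0310), a call lost with DESeq2 (adjusted p = 0.123), with all 18 libraries in 1 fit (0.0556) and without 5 single libraries, each Ctrl+FGF2 replicate and Y/T dKD+FGF2 replicates 2 and 3 (0.0545 to 0.221). At d5 the 9 libraries lay between 31.2 and 39.8 CPM. The differences were 0.14 ± 0.07 for FGF2 (adjusted p = 0.102) and -0.15 ± 0.07 for the knockdown (adjusted p = 0.113).

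Vegfc and Vegfd, the lymphatic ligands, had lower vehicle levels at d2.5 than at d5. Vegfc, on the plus strand of chromosome 8, bases 54077606 to 54187096, was at 4.41 ± 0.478, 4.84 ± 0.803 and 5.05 ± 0.157 CPM in the vehicle, FGF2 and knockdown groups at d2.5, and no difference passed (adjusted p = 0.471 for FGF2 and 0.830 for the knockdown). At d5 it was between 12.4 and 14.5 CPM in the 3 Ctrl+vehicle libraries and at 8.73, 9.53 and 8.62 in Ctrl+FGF2 libraries and 7.15, 8.56 and 6.72 in Y/T dKD+FGF2 libraries. Vehicle stood above both FGF2 groups. FGF2 lowered Vegfc by 0.59 ± 0.12 (adjusted p = 0.000420), and the knockdown difference of -0.26 ± 0.13 did not pass (adjusted p = 0.132). Against vehicle the knockdown group was 0.85 ± 0.12 lower (adjusted p = 1.80e-05).

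Vegfd, on the plus strand of chromosome X, bases 164373378 to 164402650, depended on the day. At d2.5 it was at 29.3, 28.9 and 32.5 CPM in Ctrl+vehicle, 14.7, 15.9 and 16.8 in Ctrl+FGF2 libraries and 17.2, 16.4 and 17.6 in Y/T dKD+FGF2 libraries. It fell by 0.94 ± 0.07 with FGF2 (log2, adjusted p = 1.20e-12), and the knockdown difference of 0.11 ± 0.08 did not pass (adjusted p = 0.397). At d5 it was at 77.1, 83.0 and 76.5 CPM in Ctrl+vehicle, 79.3, 87.1 and 78.6 in Ctrl+FGF2 libraries and 47.6, 40.8 and 45.2 in Y/T dKD+FGF2 libraries. The vehicle and FGF2 groups overlapped and the knockdown lay well below both. The FGF2 difference at d5 was 0.06 ± 0.06 (adjusted p = 0.395), while the knockdown lowered Vegfd by 0.88 ± 0.06 (adjusted p = 7.73e-09). Both contrasts differed between the days, by 0.98 ± 0.10 for FGF2 (adjusted p = 3.52e-10) and by -0.99 ± 0.11 for the knockdown (adjusted p = 5.84e-08).

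Summed per kb of exon, the 4 VEGF genes came to 47.8 ± 1.34 CPM per kb in Ctrl+vehicle, 64.2 ± 0.375 in Ctrl+FGF2 libraries and 55.7 ± 2.004 in Y/T dKD+FGF2 libraries at d2.5, and to 76.8 ± 2.13, 72.4 ± 1.15 and 55.9 ± 2.66 at d5. The make-up turned between the days. Vegfa and Vegfd made up 37.9% and 26.2% of the sum in Ctrl+vehicle and 49.2% and 10.2% in Ctrl+FGF2 at d2.5. At d5 the shares of Vegfa and Vegfd were 22.1% and 42.6% in Ctrl+vehicle, 15.6% and 46.8% in Ctrl+FGF2 libraries and 23.4% and 33.1% in Y/T dKD+FGF2 libraries. Vegfc stayed between 3.08% and 7.24% on average.

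The signalling receptors of the VEGFs were almost silent, apart from Flt1. Kdr had 1 count and Flt4 none in all 18 libraries. Flt1, which codes for both a membrane receptor and a soluble decoy that gene counts cannot tell apart, was at 147 ± 3.60, 144 ± 5.41 and 141 ± 3.38 CPM in the vehicle, FGF2 and knockdown groups at d2.5. At d5 it was at 134 ± 7.42, 150.1 ± 5.51 and 98.5 ± 1.90 CPM. FGF2 raised it by 0.18 ± 0.04 at d5 (adjusted p = 0.00337) and the knockdown lowered it by 0.61 ± 0.05 (adjusted p = 1.49e-08), a change 0.57 ± 0.06 below that at d2.5 (adjusted p = 5.51e-08). The summed endothelial markers in the d5 groups lay between 3.50 and 4.58, 7.28 and 8.55, and 3.82 and 4.28 CPM, with Cdh5, Cldn5, Sox17 and Robo4 at 0. Of the 4 endothelial markers tested at d5, 2 were higher with FGF2 (47.2% of all genes called) and 2 lower with the knockdown (31.7%). Pgf, a further Flt1 ligand, stayed low, between 2.18 and 4.10 CPM on average.

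**Figure D4:**
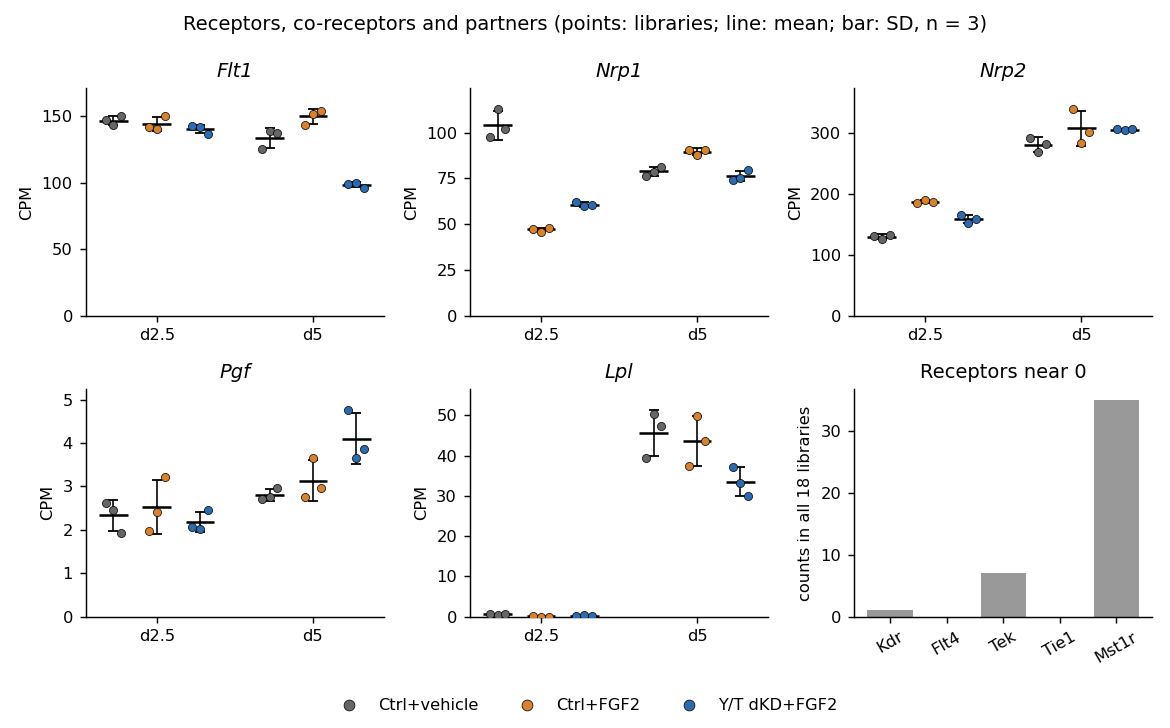
Level in CPM (y axis from 0) of the VEGF receptor Flt1, the co-receptors Nrp1 and Nrp2, the Flt1 ligand Pgf and the lipase Lpl in the 18 libraries, with mean and SD of 3 libraries, and the counts of 5 receptors summed over all 18 libraries (last panel). Flt1 is lowest in the d5 knockdown (98.5 CPM on average), Lpl is near 0 at d2.5, and Kdr, Flt4, Tek and Tie1 have 7 counts or fewer.

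The co-receptors were abundant, and FGF2 moved them in opposite directions at d2.5. At d5 both were called higher with FGF2, but the Nrp2 call was lost under several alternatives. Nrp1 was at 104 ± 7.94 CPM in Ctrl+vehicle, 47.2 ± 1.02 in Ctrl+FGF2 libraries and 60.8 ± 1.27 in Y/T dKD+FGF2 libraries at d2.5, so that it fell with FGF2 (log2 -1.16 ± 0.05, adjusted p = 6.47e-19) and rose with the knockdown (0.36 ± 0.06, adjusted p = 1.77e-05). At d5 its level was 78.8 ± 2.42, 89.7 ± 1.67 and 76.3 ± 2.75 CPM, and both changes had the opposite sign (0.20 ± 0.04, adjusted p = 0.00131, and -0.24 ± 0.04, adjusted p = 0.000445). Nrp2, which binds VEGF-C, rose with FGF2 at d2.5 from 129 ± 3.95 to 187 ± 2.61 CPM (0.52 ± 0.04, adjusted p = 9.26e-14) and fell with the knockdown to 159 ± 6.27 (-0.24 ± 0.04, adjusted p = 9.01e-06). At d5 it lay between 268 and 339 CPM in the 9 libraries and rose with FGF2 by 0.15 ± 0.05 (adjusted p = 0.0302), while the knockdown difference was -0.02 ± 0.05 (adjusted p = 0.851). The FGF2 call for Nrp2 at d5 was lost with DESeq2 (adjusted p = 0.0533) and with only the 2 groups compared (0.0907). It was also lost without Ctrl+vehicle replicate 2 (0.107) or 3 (0.0744), or Ctrl+FGF2 replicate 1 (0.203) or 3 (0.0507). Ccbe1, needed for processing of VEGF-C, rose with FGF2 on both days (0.58 ± 0.06, adjusted p = 2.32e-09 at d2.5, and 0.33 ± 0.07, adjusted p = 0.000498 at d5), while its partner protease Adamts3 was at 0 counts.

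Vegfa and Angptl4 are both known genes of the hypoxia response, so the other genes of that response were read beside them. Of 21 listed genes, 18 rose and 3 fell with FGF2 at d2.5, with a median log2 change of 0.80 against 0.00 over all genes tested, of which 67.6% were called. Car9 rose by 3.51 ± 0.25 (adjusted p = 9.21e-14), Ero1l by 1.88 ± 0.05 (adjusted p = 1.86e-25) and Egln3 by 1.72 ± 0.06 (adjusted p = 2.35e-21), and P4ha2, Pfkfb4 and Mxi1 fell. At d5, 4 rose, 7 fell and 8 of the 19 tested did not pass, with a median of -0.07, where 47.2% of all genes were called. Ndrg1 fell by 1.29 ± 0.07 (adjusted p = 2.71e-10), Pfkfb3 by 1.27 ± 0.11 (adjusted p = 7.07e-08) and P4ha2 by 1.12 ± 0.06 (adjusted p = 1.91e-10). The FGF2 change was lower at d5 than at d2.5 for 16 of the 21 and higher for 1, where 60.9% of all genes differed between the days in either direction. Of the 19 tested on both days, 6 rose at d2.5 and fell at d5, as Vegfa did (Egln1, Ero1l, Ndrg1, P4ha1, Pfkfb3 and Pgk1), and 3 rose on both days, as Angptl4 did (Egln3, Kdm3a and Slc2a1). Among these calls, the Pfkfb3 rise at d2.5 was near the threshold (0.30 ± 0.13, adjusted p = 0.0490). The Egln3 rise at d5 did not pass without Ctrl+FGF2 replicate 1 (adjusted p = 0.0868) or 3 (0.0601). The part of the hypoxia response in the Vegfa and Angptl4 levels was not tested. With the knockdown, 8 of 21 fell and 1 rose at d2.5, where 24.5% of all genes were called, and 5 of 19 fell and 2 rose at d5, near the 31.7% of all genes.

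**Figure D5:**
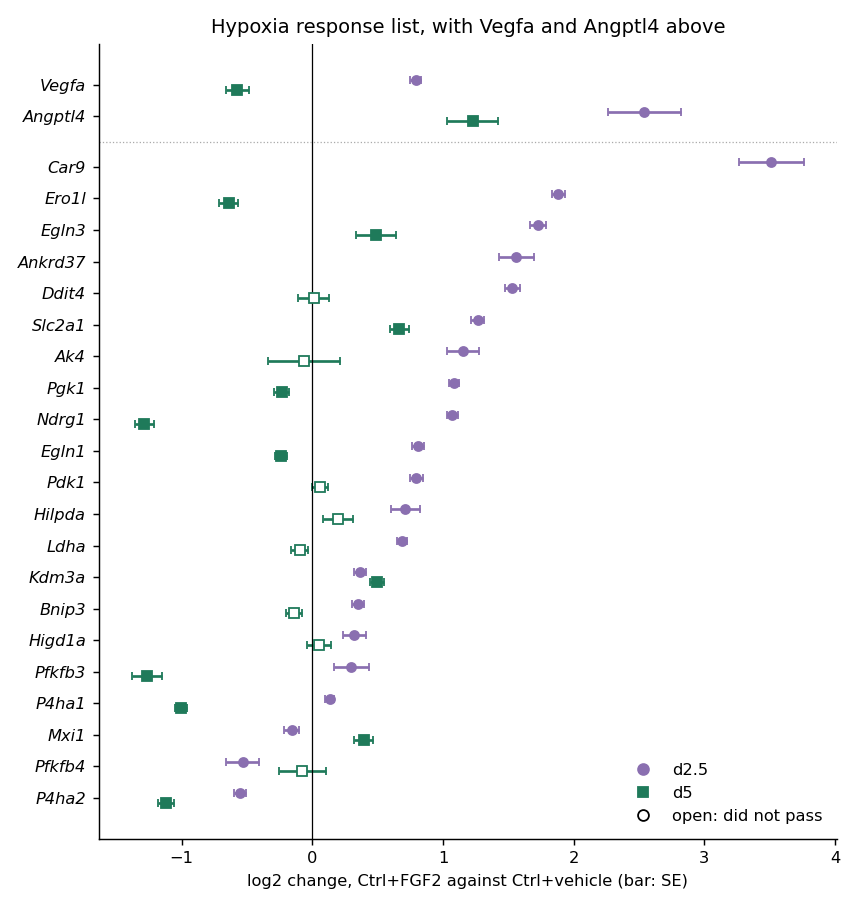
Log2 change with standard error (x axis) for Ctrl+FGF2 against Ctrl+vehicle at d2.5 (circles) and d5 (squares) of 21 genes of the hypoxia response, ordered by the d2.5 change, with Vegfa and Angptl4 above the dotted line. At d2.5, 18 of the 21 lie to the right of 0, and at d5 they lie on both sides; Car9 and Ankrd37 were not tested at d5.

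Angptl4 is also known as a gene of the PPAR response, and the list of that response was read beside it. The part of the PPAR response in the Angptl4 level was not tested. Of 12 genes tested among 16, 2 rose and 9 fell with FGF2 at d2.5 (67.6% of all genes called), and 8 rose and 1 fell at d5 (47.2%). At d2.5 Cpt1a, the gate of fatty acid entry into mitochondria, fell by 0.75 ± 0.06 (adjusted p = 6.56e-13) while Pdk4 rose by 0.17 ± 0.04 (adjusted p = 0.000206). With the knockdown, 1 rose and 7 fell at d2.5 (24.5% of all genes called), and 3 rose and 6 fell at d5 (31.7%). Plin2, a coat protein of lipid droplets, rose by 0.70 ± 0.06 (adjusted p = 3.41e-08) and Ucp2 by 0.58 ± 0.06 (adjusted p = 9.61e-07), whereas Pparg itself fell by 0.62 ± 0.09 (adjusted p = 3.72e-05).

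Each contrast was also set against itself between the days in 1 fit of all 18 libraries. For FGF2 against vehicle, all 7 genes tested differed, with Met, Angpt1 and Vegfd higher and Angptl4, Vegfa, Vegfb and Vegfc lower at d5 than at d2.5, where 60.9% of all 14198 genes did. For the knockdown against FGF2, 4 of 7 differed, with Angptl4 and Vegfa higher and Angpt1 and Vegfd lower, where 20.9% of all genes did. Without Y/T dKD+FGF2 replicate 3 of d2.5 the count was 2, since Angpt1 (adjusted p = 0.0657) and Angptl4 (0.0741) no longer passed. Hgf and Angpt2 were left out of both.

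Ranked by level per kb of exon, Vegfa led at d2.5 in all 3 groups (18.1 ± 0.917 CPM per kb in Ctrl+vehicle, 31.6 ± 0.330 in Ctrl+FGF2 libraries and 25.1 ± 1.16 in Y/T dKD+FGF2 libraries), followed by Vegfb and Met, with Hgf last and Angptl4 next to last. In Ctrl+vehicle at d2.5 the libraries of Met and Vegfd overlapped, and so did those of Vegfc and Angpt2. At d5 Vegfd led in Ctrl+vehicle (32.7 ± 1.49) and Ctrl+FGF2 (33.9 ± 1.96). In Ctrl+vehicle Angpt1 was next (30.1 ± 0.713), and only Angpt2 and Angptl4 overlapped as neighbours. In Ctrl+FGF2 the neighbours Vegfb and Angpt1, Met and Vegfa, and Vegfa and Angpt2 overlapped. In Y/T dKD+FGF2 at d5 Angpt1, Vegfb and Vegfd formed the top with overlapping neighbours (21.4 ± 0.953, 21.2 ± 1.58 and 18.5 ± 1.44), Vegfa and Met overlapped, as did Angptl4 and Angpt2, and Hgf was last at 0.930 ± 0.0943.

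Genes with a pattern most like each of the 9 were found by the root mean square difference of centred group means of log2(CPM + 0.5) over the 6 groups, among 12095 other genes (12096 for Hgf) with a mean of at least 1 on that scale. For Hgf these were Chrm3 (0.41), Tcim (0.50) and Gpr137b (0.51), beside a range of Hgf itself of 3.10. Angpt2 was nearest to Synpo2 (0.26), Trp53i11 (0.36) and Reep1 (0.38), with a range of 2.69. Angpt1 was nearest to Eya1 (0.16), Postn (0.18) and Slc16a7 (0.18), with a range of 4.23. For Angptl4 the nearest were Ccl7 (0.36), Nr4a1 (0.37) and Rapgef3 (0.43), for Vegfa Eif4ebp1 (0.08), 5430416N02Rik (0.09) and Cpox (0.09), and for Vegfd 1190002N15Rik (0.06), Grk5 (0.13) and Ccpg1 (0.14). The nearest were Stom (0.03) for Met, Dock9 (0.04) for Vegfb and Pard3b (0.13) for Vegfc, with ranges of 1.01, 0.64 and 1.53 for these members and 1.48 for Vegfa.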

How the data were processed

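Poly(A) RNA of O9-1 cells had been sequenced in 18 bulk libraries, 3 per group and day. The authors deposited gene counts per library in the layout of STAR; their processing notes name FastQC, STAR, Picard, featureCounts and the build mm10, with versions not given in the sources used here. Counts are not normalized. Column 4 was used, the strand that held 96.0% to 96.6% of stranded gene counts, and between 27.0% and 34.4% of counted reads fell on no gene and were left out. Of 55335 identifiers, 55154 matched GENCODE M21.

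Each day's 9 libraries were fitted together by the quasi-likelihood test of edgeR 4.0.16 under R 4.3.3, after filterByExpr and with TMM factors, and day differences with all 18 libraries. Adjusted p is Benjamini-Hochberg over all genes tested, with a threshold of 0.05, and SE is the log2 change over the root of F. Levels are CPM after TMM scaling over 18 libraries, with SD over 3, and genes were compared with each other only per kb of exon. Levels and figures used Python 3.11.15, pandas 2.3.3 and numpy 2.4.6. The fits were tested on simulated data, where the share of calls that fell on unchanged genes was above the threshold of the adjusted p on both days. At 3 libraries per group, precision is set by that number and, for Hgf, by counts; the limit for a count of 0 covers counting error only.

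The 9 genes and all lists were chosen with earlier results of these data known. Named besides them were their fixed receptors and partners, the 3 called genes of each list with the largest rise and fall per comparison, and the 3 genes of most similar pattern. List genes at or near 0, the endothelial markers called at d5, the genes listed by their pair of directions in the hypoxia response and Adamts3, Gpihbp1, Hgfac, Hpn and St14 were named after their values were seen. Alternatives were DESeq2 1.42.0, RLE and upper-quartile factors, no filter, at least 10 counts in every library, unstranded counts, a replicate block, only the groups compared, all 18 libraries, an adjusted p under 0.01 and leaving out each library. Replicate numbers did not generally pair the libraries (correlations of same-numbered deviations between -0.114 and 0.255, 2 of 18 over 0.1). Both of the 2 were Ctrl+vehicle with Ctrl+FGF2 at d5, for replicates 1 (0.221) and 2 (0.255). Within each group, no library was a copy of another (chi-square per degree of freedom between 1.23 and 5.95).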

Additional observations from a re-analysis of the deposited data

Results flagged for a closer look

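Each of the following changes differed between d5 and d2.5 in an interaction test over 18 libraries (edgeR's quasi-likelihood test), given as the log2 change at d5 minus that at d2.5 with its SE. Day equals the label for batch, so the difference between days cannot be told apart from one between batches.

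For Ctrl+FGF2 against Ctrl+vehicle, the change was higher at d5 for Met by 0.35 ± 0.07 (adjusted p = 8.07e-05), for Angpt1 by 1.45 ± 0.09 (1.14e-14) and for Vegfd by 0.98 ± 0.10 (3.52e-10). It was lower at d5 for Angptl4 (-1.34 ± 0.40, adjusted p = 0.00501), Vegfa (-1.39 ± 0.10, 3.36e-13), Vegfb (-0.52 ± 0.10, 2.23e-05) and Vegfc (-0.74 ± 0.18, 0.000937). Vegfa was the 1 gene of these 7 whose change passed in opposite directions on the days.

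For Y/T dKD+FGF2 against Ctrl+FGF2, the change was higher at d5 for Angptl4 (0.81 ± 0.26, adjusted p = 0.0226) and Vegfa (0.55 ± 0.10, 0.000147), and lower for Angpt1 (-0.37 ± 0.11, 0.0117) and Vegfd (-0.99 ± 0.11, 5.84e-08). The Angptl4 difference did not pass without Ctrl+FGF2 d2.5 replicate 2 (0.0656) or 3 (0.0745), Y/T dKD+FGF2 d2.5 replicate 3 (0.0741) or Ctrl+FGF2 d5 replicate 3 (0.0575), and the Angpt1 difference did not pass without Y/T dKD+FGF2 d2.5 replicate 3 (0.0657).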

How the results depend on the processing

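Of 1304 values of the 9 genes under the alternatives, 1266 kept their direction and side of the threshold, 17 no longer passed, 8 newly passed, 2 moved by more than 1 SD between replicates and 11 changed sign, all of these 11 uncalled and near 0. The number of genes past the threshold for the knockdown effect between days was between 2 and 5 with 1 library left out, against 4. The 2 that moved were Hgf in the knockdown at d5, at 4.07 and 3.70 without Ctrl+FGF2 replicate 1 or 2 against 3.89, shifts smaller than its SE of 0.25. Sign changes with 1 library left out, given as the lowest and highest value, were Vegfc at d2.5 with FGF2 (-0.0080 to 0.22) and with the knockdown (-0.029 to 0.19), Met in the knockdown at d5 (-0.015 to 0.11), Vegfb in the knockdown against vehicle at d5 (-0.050 to 0.050, and 0.012 with upper-quartile factors) and Vegfb for the knockdown between days (-0.030 to 0.097). Of 3180 values of other named genes, 83 no longer passed, 13 newly passed and 8 changed sign, these 8 all with 1 library left out: Pgf with FGF2 at d2.5 (-0.11 to 0.25) and between days (-0.10 to 0.26), Lpl with FGF2 at d5 (-0.16 to 0.046) and Nrp2 in the knockdown at d5 (-0.073 to 0.058). Mxi1 with FGF2 at d2.5 did not pass without Ctrl+vehicle replicate 2 or Ctrl+FGF2 replicate 3 (0.0888 and 0.0851). At an adjusted p under 0.01, 2057 genes in place of 3345 were called for the knockdown at d2.5. The causes were not tested. The replicate block, where numbers did not generally pair the libraries, made the knockdown count at d5 4 in place of 3 by adding Vegfa (0.21, adjusted p = 0.0176), and left the other counts of calls as they were. Without the low-count filter, Hgf at d2.5 differed by 0.72 ± 0.49 with FGF2 (adjusted p = 0.277) and -0.21 ± 0.46 with the knockdown (0.885), on 2 to 10 counts per library. Upper-quartile factors moved the median of all genes by at most 0.09.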
